A study of Xenopus laevis with 25 samples.

Results

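The genes described here encode the 3 multiprotein machines that build, supply and gate the cilium: the intraflagellar transport (IFT) trains with their retrograde motor, the BBSome with its chaperonin-like assembly factors, and the transition zone. A list of 43 gene symbols defined them, and a transcript belonged to a gene when its symbol in the authors' deposited 12 hpf comparison table matched, in any letter case. In all, 42 of the 43 genes had transcripts (18 for IFT, 10 for the BBSome and 14 for the transition zone). They comprised 61 of 22891 transcripts and 42 of 19037 features, a feature being a symbol or a transcript without a symbol. The tectonic gene tctn3 was not analysed here.

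The study profiled poly(A)-selected RNA from Xenopus embryos by sequencing at 12, 13, 14, 15 and 16 hours post fertilization (hpf). At each hour, 2 libraries came from wild type embryos and 3 from embryos injected with a morpholino against RNF20, the ubiquitin ligase that adds single ubiquitins to histone H2B. This gave 10 wild-type and 15 morpholino libraries, all from embryos described only by genotype and hour. The study's title concerns H2B monoubiquitination, heart development and cilia motility, and the comparison here asks how transcripts of the ciliary transport and gate machines differed between the arms and over the hours.

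The labels describe the control as wild type and mention no control morpholino, and they do not say whether the libraries of an hour came from separate clutches, so p-values describe only how much these particular libraries vary, which may be technical. They name Xenopus laevis, while the transcript identifiers carry the prefix of Xenopus tropicalis. In whole embryos, fewer cells of a type and less RNA per cell cannot be told apart.

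Intraflagellar transport trains carry building blocks along the axoneme. Complex B works with kinesin towards the tip, and complex A works with a dynein on the way back and also brings membrane proteins in. The BBSome is a coat-like adaptor that rides these trains and takes membrane proteins out of the cilium; its ring-shaped subcomplex needs chaperonin-like proteins for assembly. The transition zone lies between the basal body and the axoneme, where Meckel syndrome (MKS) and nephronophthisis (NPHP) proteins form a gate. In frog embryos cilia are made by the gastrocoel roof plate, the neural tube and the multiciliated cells of the epidermis, among other tissues.

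Library depth ran from 12800000 to 36200000 estimated counts. The third morpholino replicate stood apart at every hour. Its TMM scaling factors were 0.686 to 0.889, against 0.941 to 1.1 in morpholino replicates 1 and 2. In the wild type they were 1 to 1.15. The machine genes took 0.0481 to 0.0600% of its counts. Their share was 0.0696 to 0.0974% in morpholino replicates 1 and 2, and in the wild type it was 0.0826 to 0.104%. Results of the machine genes that rest on this replicate are therefore given with and without it. Calls on the other gene lists are given with all libraries only. The transcript of rnf20 itself was not lower in the morpholino arm on average. It measured 61.5 ± 13.3 CPM (counts relative to the library's TMM-scaled total) in the wild type (SD, n = 10). In the morpholino arm it measured 75.8 ± 12.4 CPM (SD, n = 15). The average difference was 0.32 ± 0.09 (log2, SE; adjusted p = 0.0153, edgeR quasi-likelihood test). By hour the rnf20 difference was 0.92, 0.55, 0.14, 0.19 and -0.20 from 12 to 16 hpf. A morpholino can block translation or splicing and need not lower the RNA, so this transcript does not check the knockdown.

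Levels between genes were compared per length, in TPM, the length-corrected share of a library's transcripts, summed per symbol. How fully the reads of each gene matched transcripts with the Xenopus tropicalis prefix was not tested, so the order of genes is that of the estimates. In the wild type, ift20 had the highest level of all the machine genes, at 100 ± 9 TPM (SD, n = 10), followed by ift46 at 51.5 ± 3.19 TPM. ift22 and ift27 came next at 44.6 ± 6.67 and 42.0 ± 5.81 TPM, within each other's spread. The lowest IFT level belonged to dync2h1, the dynein-2 heavy chain, at 2.85 ± 0.650 TPM.

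Among BBSome genes, bbs5, whose protein binds membrane phosphoinositides, led with 32.4 ± 2.51 TPM. The chaperonin-like bbs12 had the lowest mean over the hours, at 3.41 ± 1.58 TPM, and bbs10 (4.55 TPM) and bbs1 (4.87 TPM) lay within its spread. At 12 hpf wild-type bbs12 measured 4.69 and 4.87 TPM, above bbs10 at 3.62 and 3.19 TPM. In the transition zone the B9 domain gene b9d2 led with 36.3 ± 3.37 TPM. The lowest gate genes were rpgrip1l at 4.62 ± 0.674 and cep290 at 4.48 ± 0.612 TPM, which lay within each other's spread.

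**Figure D1:**
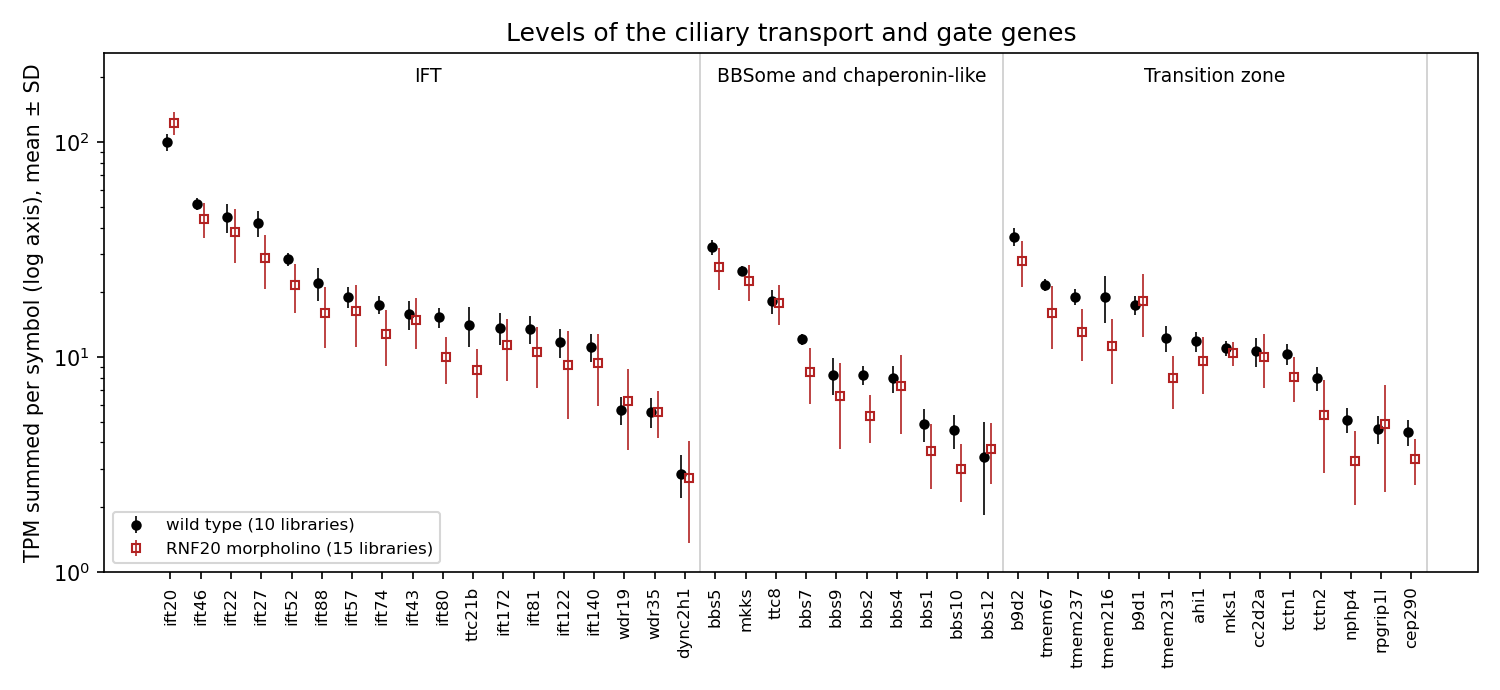
Level of each of the 42 genes in the wild type (10 libraries, filled circles) and the RNF20 morpholino arm (15 libraries, open squares), in TPM summed per symbol on a log axis, mean ± SD, grouped by machine and ordered by wild-type level. Wild-type levels run from 100 TPM for ift20 to 2.85 TPM for dync2h1.

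Arms were then compared on the TMM-scaled CPM values. The average arm difference is the mean of the 5 hourly morpholino minus wild-type differences on the log2 scale, and a gene was called at an adjusted p under 0.05 over all 14151 features tested. The fit held no replicate term and treated the 25 libraries as independent, though same-numbered libraries of an arm deviated together over the hours. All 42 genes passed the filter on low counts. In the morpholino arm 1 gene of the 42 was higher (2.38%) and 10 were lower (23.8%), beside 17.2% higher and 17.4% lower among all features. The median difference of the 42 genes was -0.20 and that of all features -0.01, with 30 of 42 genes below 0, beside 50.9% of all features.

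Each machine had more lower than higher calls. Of the 18 IFT genes 1 was higher and 3 were lower (16.7%, median -0.13). Of the 10 BBSome genes 3 were lower (30%, median -0.17), and of the 14 transition zone genes 4 were lower (28.6%, median -0.26). Among all features 17.4% were lower, so the lower share of the IFT genes was near that of all features. The differences between these 3 counts were not tested. Without the third morpholino replicate the median over the 42 genes was -0.07, and calls moved to 8 higher and 12 lower, beside 21.9% higher and 23.6% lower among all features. The 8 higher genes then were ift20, wdr19, wdr35, dync2h1, bbs4, ttc8, bbs12 and cc2d2a, and the 12 lower genes were the 10 below plus nphp4 and rpgrip1l. Leaving out 1 library at a time gave 7 to 13 lower genes and 1 or 2 higher genes, while 11.4 to 20.8% of all features were lower and 11.7 to 21.2% higher. The second higher gene came with the omission of any of 6 libraries, namely the 14, 15 and 16 hpf libraries of the second wild-type replicate, the 12 and 16 hpf libraries of the third morpholino replicate, and the 15 hpf library of the first.

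**Figure D2:**
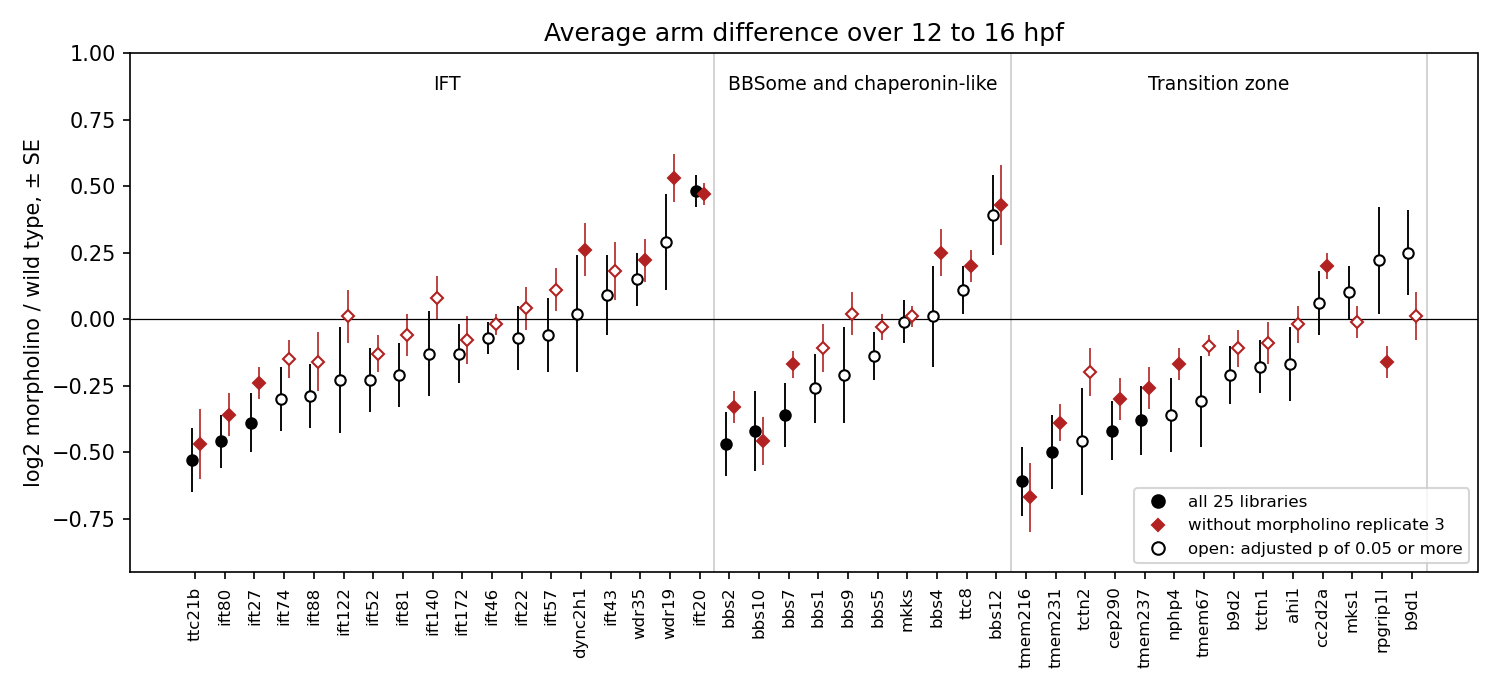
Average arm difference of each gene (log2 morpholino over wild type, ± SE) with all 25 libraries (black circles) and without the third morpholino replicate (red diamonds). Filled symbols mark an adjusted p under 0.05. With all libraries ift20 alone is filled above 0, at 0.48, and 10 genes are filled below 0, down to -0.61 for tmem216.

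In complex B, which has 11 genes on the list, 1 gene was higher (9.09%) and 2 were lower (18.2%). Among all features 17.2% were higher and 17.4% lower, so the lower share was near that of all features. The higher gene, ift20, encodes a small subunit that in mammals also sits at the Golgi and helps sort ciliary membrane proteins. At 12 hpf the wild-type libraries held 27.3 and 25.9 CPM of ift20 and the morpholino libraries 37.5, 34.7 and 33.2 CPM. At 13 hpf the values were 23.9 and 24.6 against 32.9, 32.7 and 33.8 CPM.

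The arms stayed apart at the later hours. At 14 hpf ift20 measured 24.8 and 21.0 CPM in the wild type and 31.6, 29.2 and 31.3 CPM in the morpholino arm. The values were 20.1 and 21.2 against 32.2, 29.1 and 26.9 CPM at 15 hpf, and 20.4 and 22.3 against 30.4, 29.9 and 37.3 CPM at 16 hpf. On these TMM-scaled values every morpholino library was above both wild-type libraries of its hour, and 14 of 15 were above all 10 wild-type libraries. The scaling mattered at 16 hpf, where the third morpholino replicate had the lowest factor of all libraries, 0.686. In TPM, without that scaling, ift20 measured 84.3 in that library, below the wild type of the hour at 91.7 and 99.8.

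The average difference of ift20 was 0.48 ± 0.06 (log2, SE; adjusted p = 6.77e-05, edgeR). It was 0.47 ± 0.04 without the third morpholino replicate, so that replicate did not set it. The call held in all 38 alternatives run, with differences between 0.31 and 0.51.

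The lower gene with the most morpholino libraries below the whole wild-type range was ift80. It encodes a complex B subunit mutated in human skeletal ciliopathies with a narrow thorax. Wild-type libraries ran from 21.3 to 27.2 CPM (median 23.4) and morpholino libraries from 12.9 to 21.3 CPM (median 17.8). All 15 morpholino libraries lay below all 10 wild-type libraries, though the highest morpholino and the lowest wild-type value both round to 21.3 CPM. The difference was -0.46 ± 0.10 (adjusted p = 0.00300, edgeR). The difference of the means was smallest at 16 hpf, with 22.3 and 21.3 CPM against 19.4, 19.6 and 19.8 CPM. Counting only its most abundant transcript gave -0.32 (adjusted p = 0.288).

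The other lower gene of complex B was ift27, a small GTPase-like subunit that in mouse lets the BBSome leave the cilium. It ran from 39.6 to 56.6 CPM in the wild type (median 49.7) and from 24.8 to 48.9 CPM in the morpholino arm (median 40.2). The ranges overlapped over all hours, but within the hour the arms were apart at 13, 14, 15 and 16 hpf. The difference was -0.39 ± 0.11 (adjusted p = 0.0101) and -0.24 ± 0.06 without the third replicate (adjusted p = 0.00351, edgeR).

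The other 8 complex B genes were not called. They include the core subunits ift88 (-0.29 ± 0.12, adjusted p = 0.0720) and ift52 (-0.23 ± 0.12, adjusted p = 0.142). The tubulin-binding pair ift74 and ift81 measured -0.30 ± 0.12 (adjusted p = 0.0640) and -0.21 ± 0.12 (adjusted p = 0.173) by the edgeR test. ift46, which in Chlamydomonas is needed to bring in outer dynein arms, measured 72.2 ± 5.12 CPM in the wild type and 68.9 ± 6.75 CPM in the morpholino arm. Differences of the 8 ran from -0.30 to -0.06.

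In complex A, 1 of 6 genes was called, as lower (16.7%), near the 17.4% lower among all features. The called gene was ttc21b, which encodes IFT139. Its wild-type libraries lay between 23.7 and 42.4 CPM (median 35.0) and its morpholino libraries between 15.9 and 31.8 CPM (median 22.3). At 12, 15 and 16 hpf every morpholino library was below the wild type, and at 13 and 14 hpf the arms overlapped. The difference was -0.53 ± 0.12 (adjusted p = 0.00458, edgeR) and -0.47 ± 0.13 without the third replicate.

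Another complex A gene, wdr19 (IFT144), depended on that replicate. At 16 hpf wdr19 measured 12.2 and 13.3 CPM in the wild type and 23.7, 20.2 and 12.9 CPM in the morpholino arm, the last value being the third replicate. At 12 hpf the values were 11.5 and 11.1 against 20.7, 13.3 and 6.44 CPM. The third replicate was the lowest morpholino library at every hour.

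The average difference of wdr19 was 0.29 ± 0.18 (adjusted p = 0.199) with all libraries and 0.53 ± 0.09 without the third replicate (adjusted p = 0.000307, edgeR). The same replicate decided the calls of other genes of the return trip. wdr35 (IFT121) went from 0.15 ± 0.10 (adjusted p = 0.251) to 0.22 ± 0.08 (adjusted p = 0.0303), and dync2h1 from 0.02 ± 0.22 (adjusted p = 0.945) to 0.26 ± 0.10 (adjusted p = 0.0473). The remaining complex A genes, ift43, ift122 and ift140, were called in neither fit.

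The BBSome had 2 lower genes among its 7 core subunits (28.6%, beside 17.4% of all features). They were bbs2 and bbs7, whose proteins pair within the ring-shaped subcomplex. At 12 hpf bbs2 measured 11.5 and 10.9 CPM in the wild type and 8.86, 8.34 and 5.10 CPM in the morpholino arm. At 16 hpf the values were 8.76 and 9.25 against 7.84, 7.0 and 8.06 CPM. Arms were apart at all 5 hours, with the morpholino libraries below.

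Over all hours bbs2 ran from 8.76 to 12.6 CPM (median 10.6) in the wild type and from 5.10 to 9.16 CPM (median 8.01) in the morpholino arm. Its difference was -0.47 ± 0.12 (adjusted p = 0.00733) and -0.33 ± 0.06 without the third replicate (adjusted p = 0.000804, edgeR). For bbs7 the ranges were 17.3 to 22.5 CPM (median 20.0) and 10.1 to 20.1 CPM (median 17.1).

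The third replicate held the 5 lowest bbs7 values, 10.1 to 13.2 CPM, while the other morpholino libraries ran from 16.8 to 20.1 CPM. The difference for bbs7 was -0.36 ± 0.12 (adjusted p = 0.0318), and -0.17 ± 0.05 without that replicate (adjusted p = 0.00702, edgeR). Leaving out 1 library at a time lost the bbs7 call in 9 of 25 cases, all of them wild-type libraries, with adjusted p up to 0.0676. The omission that kept the call among wild-type libraries was that of replicate 1 at 16 hpf.

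The core genes bbs1, bbs4, bbs5, bbs9 and ttc8 were not called with all libraries, with differences from -0.26 to 0.11. Without the third replicate bbs4 and ttc8, subunits of the BBSome's outer part, were higher at 0.25 ± 0.09 (adjusted p = 0.0337) and 0.20 ± 0.06 (adjusted p = 0.0166, edgeR). Core subunits of the same complex thus lay on both sides of 0.

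Of the 3 chaperonin-like genes 1 was lower (33.3%, beside 17.4% of all features). It was bbs10, with 3.75 to 5.96 CPM in the wild type (median 5.25) and 2.23 to 5.84 CPM in the morpholino arm (median 3.52). The highest morpholino value, 5.84 CPM, was the third replicate at 12 hpf, and at the other 4 hours the arms were apart. The difference was -0.42 ± 0.15 (adjusted p = 0.0349, edgeR). Single-library omissions lost the call in 12 of 25 cases, with adjusted p up to 0.0787. These were replicate 1 of the wild type at all 5 hours, wild-type replicate 2 at 13, 15 and 16 hpf, morpholino replicate 2 at 12 and 13 hpf and morpholino replicate 3 at 14 and 15 hpf.

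mkks, also chaperonin-like, measured 25.2 ± 1.55 and 25 ± 3.17 CPM, a difference of -0.01 ± 0.08 (adjusted p = 0.918, edgeR). bbs12 went in opposite directions at different hours. At 13 hpf it measured 5.94 and 6.35 CPM in the wild type and 5.33, 5.0 and 4.42 CPM in the morpholino arm. At 15 hpf the values were 1.46 and 3.66 against 5.11, 6.33 and 8.22 CPM, and at 16 hpf 1.43 and 2.10 against 3.29, 3.57 and 2.91 CPM.

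The morpholino libraries were thus below the wild type at 13 hpf and above it at 15 and 16 hpf. The average difference of bbs12 was 0.39 ± 0.15 (adjusted p = 0.0525), and 0.43 ± 0.15 without the third replicate (adjusted p = 0.0324, edgeR). Over 14 to 16 hpf alone it was 0.85 ± 0.20 (adjusted p = 0.0120, edgeR). Against wild-type libraries 2 hours younger, the same morpholino libraries measured -0.17 ± 0.19 (adjusted p = 0.718, edgeR).

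Among the 10 transition zone genes of the MKS module 3 were lower (30%, beside 17.4% of all features). They were tmem216, tmem231 and tmem237, and all 3 encode membrane proteins of the gate. tmem216 ran from 2.46 to 4.93 CPM in the wild type (median 4.06) and from 1.27 to 4.90 CPM in the morpholino arm (median 2.54). At 13 hpf it measured 4.20 and 3.13 against 1.82, 1.27 and 2.18 CPM. In TMM-scaled CPM the arms were apart at 12, 13, 14 and 15 hpf and overlapped at 16 hpf.

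The difference of tmem216, -0.61 ± 0.13 (adjusted p = 0.00311, edgeR), was the lowest of the 42 genes. Its estimated counts were low, from 18 to 121 a library, which makes single values coarse. tmem231 measured 12.7 and 12.7 CPM in the wild type at 12 hpf and 9.65, 7.78 and 9.87 CPM in the morpholino arm.

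At 16 hpf tmem231 measured 9.24 and 10.2 CPM against 8.38, 8.14 and 3.41 CPM. Morpholino libraries were below the wild type at all 5 hours, with a difference of -0.50 ± 0.14 (adjusted p = 0.0101) and of -0.39 ± 0.07 without the third replicate (adjusted p = 0.000757, edgeR). tmem237 ran from 12.5 to 15.9 CPM (median 14.5) in the wild type and from 6.79 to 16.2 CPM (median 11.7) in the morpholino arm.

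Its highest morpholino value was the third replicate at 16 hpf, at 16.2 CPM. That library had a TMM factor of 0.686. In TPM, without that scaling, it held 11.2 of tmem237, below the wild type of the hour at 17.3 and 21.8. Of the 5 lowest morpholino CPM values 4 came from the third replicate at the earlier hours. The difference of tmem237 was -0.38 ± 0.13 (adjusted p = 0.0331, edgeR), and single-library omissions lost the call in 12 of 25 cases, with adjusted p up to 0.0740. These were both wild-type replicates at 12, 13, 14 and 15 hpf, wild-type replicate 2 at 16 hpf, morpholino replicates 2 and 3 at 12 hpf and morpholino replicate 3 at 14 hpf.

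The gate genes tctn1, tctn2, mks1, b9d1, b9d2, cc2d2a and tmem67 were not called with all libraries. tmem67, which encodes the receptor-like meckelin, measured 35.3 to 41.1 CPM in the wild type and 30.6 to 39.8 CPM in morpholino replicates 1 and 2. The third replicate held 25.8, 26.7, 24.6, 26.2 and 7.40 CPM from 12 to 16 hpf, all below every other library.

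The tectonic gene tctn2 measured -0.46 ± 0.20 (adjusted p = 0.0830), and -0.20 ± 0.09 without that replicate (adjusted p = 0.0792, edgeR). b9d1 went the other way in the third replicate, which held 32.3 and 27.0 CPM at 12 and 13 hpf beside 11.8 to 15.5 CPM in the wild type at those hours. cc2d2a, the gene of a coiled-coil gate protein, was higher without the third replicate at 0.20 ± 0.05 (adjusted p = 0.00542), against 0.06 ± 0.12 with it (adjusted p = 0.721, edgeR).

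In the NPHP group of nphp4, rpgrip1l, cep290 and ahi1, cep290 was lower (1 of 4, or 25%, beside 17.4% of all features). It encodes a large protein that links the gate's membrane to the microtubules. Wild-type libraries ran from 12.2 to 17.1 CPM (median 14.5) and morpholino libraries from 7.11 to 16.1 CPM (median 10.3). Arms were apart at every hour except 14 hpf, and the difference was -0.42 ± 0.11 (adjusted p = 0.00715, edgeR).

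For rpgrip1l, the gene of a scaffold that holds other gate proteins, the third replicate decided the direction. That replicate held 34.1, 25.9, 19.7, 14.6 and 7.64 CPM from 12 to 16 hpf. Morpholino replicates 1 and 2 measured 11.6 and 12.6 CPM at 12 hpf and 8.49 and 8.10 CPM at 16 hpf, and the wild type 11.4 and 12.3 CPM and 9.20 and 9.25 CPM. The average difference of rpgrip1l was 0.22 ± 0.20 (adjusted p = 0.399) with all libraries and -0.16 ± 0.06 without the third replicate (adjusted p = 0.0373, edgeR).

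**Figure D3:**
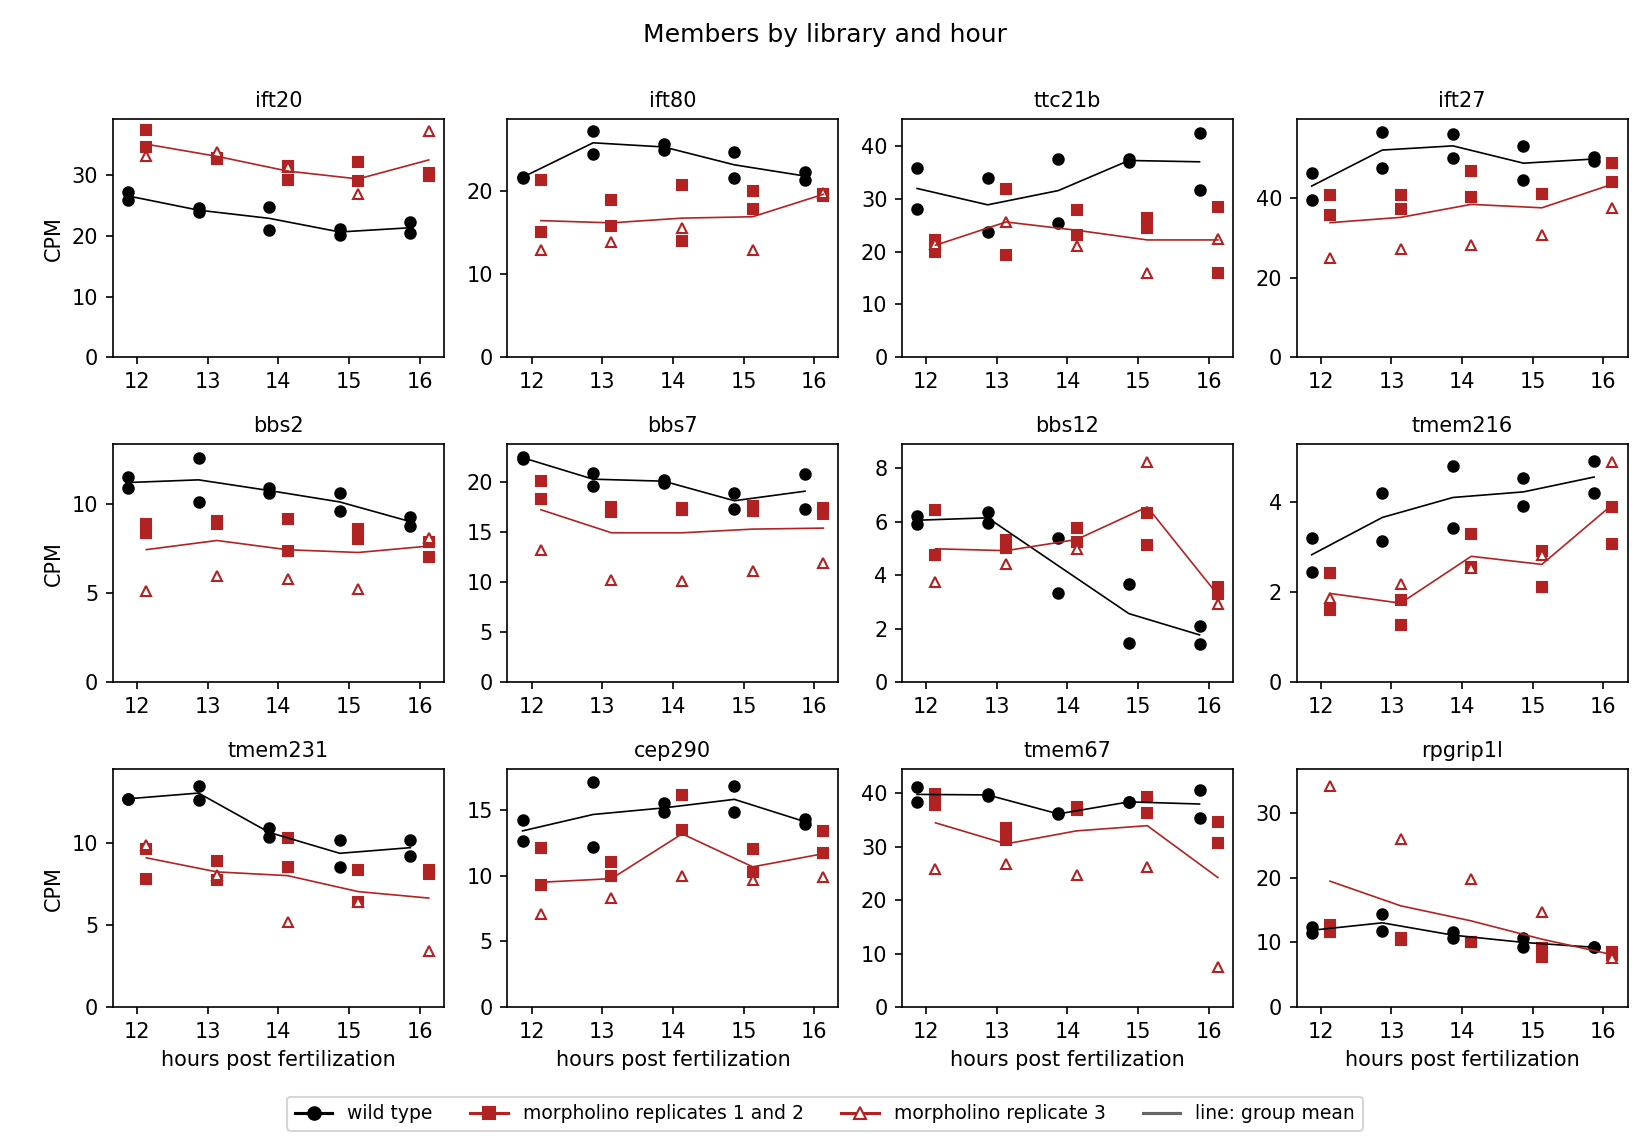
CPM of 12 genes in every library by hour post fertilization: wild type (black circles), morpholino replicates 1 and 2 (red squares) and morpholino replicate 3 (open triangles), with lines through the group means. ift20 lies above the wild type at all 5 hours, ift80, bbs2 and tmem231 lie below it at all 5 hours, and the third replicate departs from the other morpholino libraries in tmem67, bbs7 and rpgrip1l.

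Summed over each machine the arms overlapped. IFT genes together held 440 to 543 CPM in the wild type, 392 to 539 CPM in morpholino replicates 1 and 2 and 341 to 431 CPM in replicate 3. BBSome genes held 133 to 160, 136 to 155 and 106 to 119 CPM, and transition zone genes 204 to 253, 197 to 240 and 165 to 219 CPM in the same order. The third replicate lay below the whole wild-type range in the IFT and BBSome sums, and below both wild-type libraries of the same hour in the transition zone sum at all 5 hours. The other morpholino libraries overlapped the wild-type range in each machine.

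**Figure D4:**
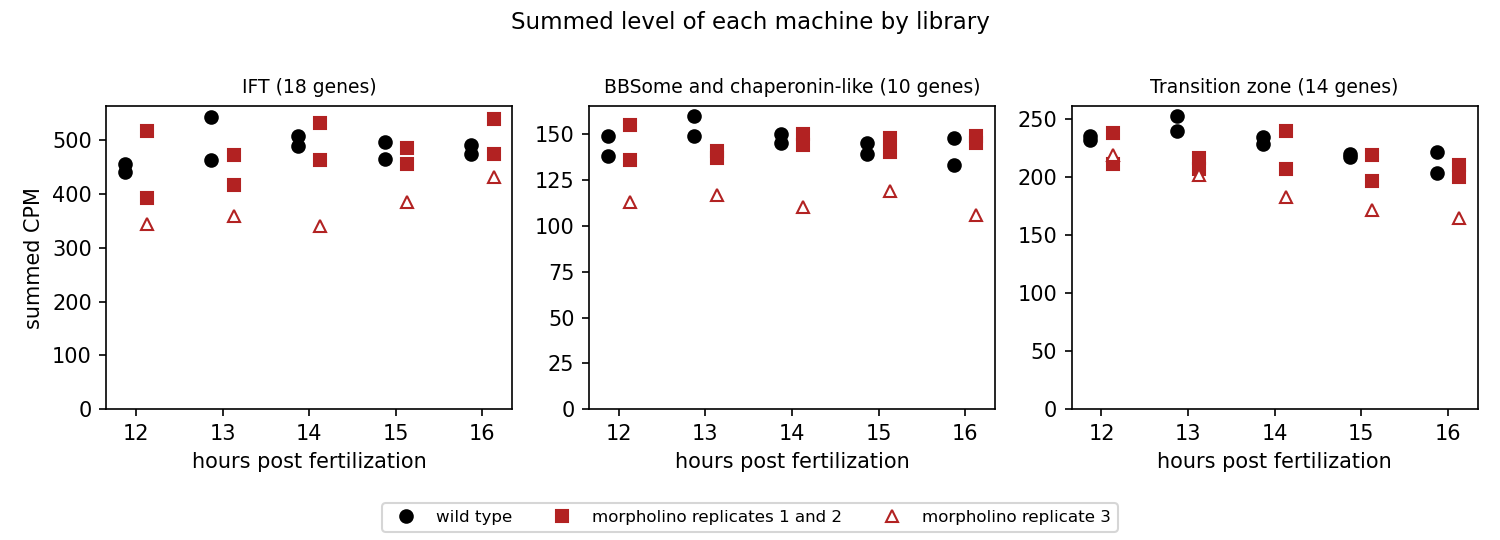
Summed CPM of the 18 IFT, 10 BBSome and 14 transition zone genes in each library by hour post fertilization, with axes from 0. Wild type and morpholino replicates 1 and 2 overlap in the BBSome panel (133 to 160 and 136 to 155 CPM), and morpholino replicate 3 lies below both (106 to 119 CPM).

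Single hours were read from whether the 3 morpholino libraries of an hour overlapped its 2 wild-type libraries in TMM-scaled CPM. At 13 hpf 23 of 42 genes had every morpholino library below the wild type and 1 had every one above, beside 28.2% and 26.9% of all features. At 12 hpf the counts were 11 below and 1 above (all features 18.7% and 17.6%), and at 14 hpf 10 below and 2 above (22.2% and 20.4%). At 15 hpf they were 17 below and 5 above (23.1% and 19.1%), and at 16 hpf 11 below and 3 above (20.4% and 13.8%).

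Median hourly differences of the 42 genes were -0.14, -0.35, -0.21, -0.18 and -0.05 from 12 to 16 hpf. The lower values were thus most frequent at 13 hpf, where 8 of 14 transition zone, 6 of 10 BBSome and 9 of 18 IFT genes had all morpholino libraries below. Tested 1 hour at a time, no gene of the 42 was called at any hour by edgeR, beside 0.127%, 0.148%, 0.155%, 0.0989% and 0.311% of all features from 12 to 16 hpf. At an unadjusted p under 0.05 there were 3, 7, 2, 5 and 3 of the 42 in the same order, beside 9.29%, 15.8%, 9.63%, 11.9% and 13.5% of all features. Among the 42 genes the arms were apart at every hour for ift20, with the morpholino above, and for ift80, bbs2 and tmem231, with it below. That is 1 and 3 of 42, beside 4.37% above and 5.34% below at every hour among all features.

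Change over the hours was measured as the slope of a straight line, in log2 units an hour. In the wild type no gene of the 42 rose and 1 fell, beside 3.51% rising and 2.08% falling among all features (edgeR; 4 of the 42, or 9.52%, had an unadjusted p under 0.05, beside 24.4% of all features, and DESeq2 also called none rising). The falling gene was bbs12, at -0.48 ± 0.08 an hour (adjusted p = 0.00591), from 5.90 and 6.21 CPM at 12 hpf to 1.43 and 2.10 CPM at 16 hpf. Omitting the second wild-type library of 12 hpf lost the call (-0.47, adjusted p = 0.0737), as did omitting the first of 16 hpf (-0.43, adjusted p = 0.123, edgeR). Of all features 0.0762% and 0.0486% fell in those fits.

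The count of falling genes was 3, with none rising, when the third morpholino library of 16 hpf was omitted, beside 9.32% falling and 10.2% rising among all features. Same-numbered wild-type libraries deviated together over the hours, and with a replicate block in each arm 1 gene rose and 2 fell, beside 16.3% and 11.9% of all features. The block fit put tmem216 at 0.16 ± 0.06 (adjusted p = 0.0440) and cc2d2a at -0.18 ± 0.04 (adjusted p = 0.00616) in the wild type. Without the third morpholino replicate at any hour 3 rose and 8 fell, beside 26.3% and 24.1%. Slopes of the 42 genes with all libraries ran from -0.48 to 0.16.

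In the morpholino arm 1 gene rose and 1 fell, beside 14.3% and 10.2% of all features. tmem216 rose by 0.26 ± 0.06 an hour (adjusted p = 0.00855), from 2.43, 1.61 and 1.88 CPM at 12 hpf to 3.89, 3.07 and 4.90 CPM at 16 hpf. rpgrip1l fell, with a slope of -0.31 ± 0.09 an hour (adjusted p = 0.0213, edgeR), and on omission of the third library of 12 hpf it was -0.17 (adjusted p = 0.158).

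The count of rising genes moved with single libraries and with the replicate block. It was 7, with 2 falling, when the first morpholino library of 12 hpf was omitted (16.9% and 12% of all features) or the third of 16 hpf (24.2% and 20.1%). It was 3, with 1 falling, on omission of the first of 13 hpf (14.8% and 10.5%) or the third of 14 hpf (15.6% and 11.1%), and 2, with 1 falling, on omission of the third of 15 hpf (18.3% and 14.5%). Same-numbered morpholino libraries deviated together in 9 or 10 of 10 pairs of hours for each number, though deviations from a shared group mean are not independent between numbers. With a replicate block in each arm 9 genes rose and 4 fell, beside 23.4% and 18.9% of all features. In the block fit tctn2 rose by 0.29 ± 0.05 an hour (adjusted p = 0.000407) and ift140 by 0.21 ± 0.04 (adjusted p = 0.00115, edgeR). Without the third replicate at all hours 9 rose and 3 fell, beside 28.1% and 26.6% of all features. Among the genes nearest the threshold was ift140, a complex A subunit, at 0.19 ± 0.07 (adjusted p = 0.0615) and 0.15 ± 0.04 without the third replicate (adjusted p = 0.00594, edgeR).

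The slope difference between the arms was not called for any of the 42 genes, nor for any of the 14151 features (0%), by edgeR. At an unadjusted p under 0.05 there were 574 features, of which 1 was a machine gene, bbs12, at 0.40 ± 0.11 (unadjusted p = 0.00133, adjusted p = 0.997). DESeq2 called 1 feature higher and 1 lower, neither a machine gene. With 2 and 3 libraries an hour, a difference in rate between the arms was thus not detected for these genes. Whether the rates were equal was not tested.

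Morpholino libraries of 14 to 16 hpf were also set against wild-type libraries 2 hours younger. ift20 was then higher at 0.33 ± 0.08 (adjusted p = 0.0340), and bbs2 and tmem231 were lower at -0.58 ± 0.15 (adjusted p = 0.0466) and -0.74 ± 0.17 (adjusted p = 0.0234, edgeR). These were the 1 higher and 2 lower calls, beside 1.62% and 1.53% of all features. Restricting both arms to 14 to 16 hpf gave 2 higher genes, ift20 and bbs12, and 2 lower, ift80 and ttc21b, beside 6.89% and 6.25%. bbs2 and tmem231 measured -0.41 (adjusted p = 0.0756) and -0.45 (adjusted p = 0.0849, edgeR) there.

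For the same 14 to 16 hpf morpholino libraries, tmem216 measured -0.19 against the younger wild type (adjusted p = 0.642) and -0.48 at matched hours (adjusted p = 0.0623, edgeR). tmem216 was the gene called as rising in the morpholino arm. Its wild-type slope was 0.16 ± 0.07 an hour (adjusted p = 0.188, edgeR), and its slope difference of 0.10 ± 0.09 was not called. At 16 hpf 1 of its morpholino values, 4.90 CPM in the third replicate, reached the wild-type range of that hour. In TPM, without TMM scaling, that library held 12.5 of tmem216, below the wild type of the hour at 24.9 and 21.2. cep290 measured -0.29 (adjusted p = 0.325) and -0.35 (adjusted p = 0.0935), so it was called against neither reference over these hours. ttc21b measured -0.43 (adjusted p = 0.169) and -0.63 (adjusted p = 0.0177, edgeR). With the third replicate also left out, a comparison chosen after seeing the data, the shifted fit called 6 higher and 5 lower genes, beside 10.9% and 11.9%.

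Of the 42 genes, 26 had 1 transcript, 13 had 2 and 3 had 3. Tested singly, 3 transcripts were higher and 10 were lower of 59 tested, beside 13.9% and 13.1% of all transcripts tested. Of the 3 dync2h1 transcripts, that of 12141 bases and 1 of the 2 with 12147 bases were higher, at 1.89 ± 0.65 (adjusted p = 0.0404) and 2.39 ± 0.76 (adjusted p = 0.0299). The most abundant dync2h1 transcript measured -1.14 ± 0.73 (adjusted p = 0.247, edgeR), and the sum of the 3 measured 0.02. Near-identical transcripts share reads, and the split between them is the quantifier's estimate.

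nphp4 showed a split between transcripts of unequal length. The transcript of 1779 bases was lower at -0.91 ± 0.22 (adjusted p = 0.00701), and that of 4430 bases measured -0.06 ± 0.15 (adjusted p = 0.815, edgeR). For cep290 the transcript of 7383 bases was lower at -0.49 ± 0.14 (adjusted p = 0.0161), and that of 1414 bases measured 0.12 ± 0.21 (adjusted p = 0.699, edgeR).

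The authors' deposited tables compare the arms hour by hour and transcript by transcript. At 12 hpf 2 of 54 machine transcripts had a q-value under 0.05 in the authors' deposited table, beside 0.834% of all transcripts. Both belonged to dync2h1, with deposited q-values of 0.000520 and 0.000949 in the authors' deposited table. Their deposited differences were 7.35 and 6.79 (log2 morpholino over wild type), while the other dync2h1 transcript measured -3.53 at that hour. Summed over its transcripts, dync2h1 differed by -0.19 at 12 hpf. At 13, 14, 15 and 16 hpf the authors' deposited tables held no machine transcript under that threshold, beside 5.82%, 1.06%, 0.603% and 0.0433% of all transcripts. At an unadjusted p under 0.05 the authors' deposited tables held 6, 10, 2, 5 and 0 machine transcripts from 12 to 16 hpf, beside 9.25%, 21.9%, 10.7%, 9.46% and 1.9% of all transcripts.

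Other genes of the same machines and of the ciliary base, 44 on the list of which 36 were tested, gave 3 higher and 7 lower calls, with a median of -0.11, beside the 17.2% higher and 17.4% lower of all features. Motor parts fell on both sides of the threshold. wdr34, a dynein-2 intermediate chain, measured -0.37 ± 0.11 (adjusted p = 0.0171), and kifap3, the kinesin-2 associated protein, -0.60 ± 0.15 (adjusted p = 0.00807, edgeR). The kinesin-2 motor genes kif3a and kif3b, at 0.02 ± 0.11 and -0.15 ± 0.15, and the dynein-2 gene wdr60, at 0.07 ± 0.10, were not called (adjusted p = 0.907, 0.444 and 0.610, edgeR). The distal appendage gene cep89 was lower at -0.70 ± 0.21 (adjusted p = 0.0160, edgeR), and kif3c, dync2li1 and fbf1 were also among the lower genes. kif3c was near the floor, with at most 2.04 CPM in any library and 0 CPM in some morpholino libraries. For dync2li1, kifap3 and cep89 the third morpholino replicate was the lowest library at every hour. lztfl1, a BBSome regulator, rab8a, a GTPase of ciliary membrane delivery, and ofd1 of the centriole end were higher, at 0.61 ± 0.22, 0.18 ± 0.06 and 0.49 ± 0.18 (adjusted p = 0.0351, 0.0249 and 0.0479, edgeR). The third morpholino replicate held 52.2, 41.8, 33.3, 16.5 and 44.5 CPM of lztfl1 from 12 to 16 hpf. Morpholino replicates 1 and 2 measured 21.2 and 28.7 CPM at 12 hpf, and 12.6 and 16.1 CPM at 16 hpf. The wild type measured 16.3 and 18.8 CPM, and 16.3 and 17.6 CPM, at those hours.

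Regulators of ciliary genes and of multiciliated cells went both ways. Of 11 listed 10 were tested, 3 were higher and 2 were lower, beside 17.2% and 17.4% of all features. mcidas, which acts early in multiciliated cell fate, and ccno, a cyclin relative needed there for making many centrioles, were higher at 1.96 ± 0.34 (adjusted p = 0.000646) and 1.91 ± 0.39 (adjusted p = 0.00203), and foxj1, the regulator of motile cilia, at 0.37 ± 0.12 (adjusted p = 0.0291, edgeR). The third morpholino replicate held 93.2, 85.5, 84, 121 and 109 CPM of foxj1 from 12 to 16 hpf. At 13 hpf morpholino replicates 1 and 2 measured 60.3 and 75.3 CPM, and the wild type 73.4 and 70.1 CPM. At 16 hpf the foxj1 values were 58.7 and 62.7 against 47.1 and 52.1 CPM. At 12 hpf mcidas measured 31 and 47.5 CPM in the wild type and 52.8, 52.4 and 41.4 CPM in the morpholino arm, with overlap. It fell in both arms, to 0.733 and 1.65 against 3.62, 8.19 and 20.2 CPM at 16 hpf. ccno measured 33.3 and 44.1 against 55.5, 55.3 and 49.9 CPM at 12 hpf. Its values at 16 hpf were 1.71 and 3.29 against 8, 14.2 and 64.6 CPM. rfx3 and rfx4, of the family that binds promoters of IFT genes, were lower at -0.95 ± 0.25 (adjusted p = 0.00974) and -0.62 ± 0.20 (adjusted p = 0.0230, edgeR). For both genes the third morpholino replicate was the lowest library at every hour. At 12 hpf rfx3 measured 5.65 and 5.14 CPM in the wild type and 2.76, 2.52 and 2.01 CPM in morpholino replicates 1 to 3. Its values at 16 hpf were 4.93 and 5.45 against 6.3, 4.53 and 0.748 CPM. rfx4 measured 17.6 and 23.3 against 16.3, 17 and 3.07 CPM at 16 hpf.

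rfx2, the family member with the highest level here, measured 182 ± 32.0 CPM in the wild type and 193 ± 44.3 CPM in the morpholino arm (0.08 ± 0.13, adjusted p = 0.620, edgeR). foxn4 measured 0.26 ± 0.11, myb 0.09 ± 0.08, e2f4 -0.18 ± 0.09 and e2f5 0.05 ± 0.08, and none of these 4 was called. gmnc had too few counts to be tested.

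Markers of cell types were measured in the same libraries. Of 9 multiciliated cell markers 5 were higher (mcidas, ccno, foxj1, deup1 and cdc20b) and 3 were lower (tekt2, tekt3 and spag6), beside 17.2% and 17.4% of all features. None of the 9 was at 0 in any library. Their summed level ran from 205 to 301 CPM in the wild type and from 224 to 353 CPM in the morpholino arm, so the ranges overlapped. At 14 hpf the third morpholino replicate held 17.4, 3.41 and 18.5 CPM of tekt2, tekt3 and spag6. Morpholino replicates 1 and 2 held 42.9 and 36.4, 16.8 and 6.76, and 52 and 38.3 CPM of them. The wild type held 48.3 and 53.1, 27.7 and 14.4, and 54.7 and 58 CPM. Among 4 ionocyte markers foxi1 was higher, and the summed level was 76.3 to 131 CPM in the wild type and 144 to 258 CPM in the morpholino arm, without overlap. foxi1 held the largest part of that sum, with 44.6 to 78.3 CPM in the wild type and 84.4 to 239 CPM in the morpholino arm. The other ionocyte markers were not called, and the median difference of the list was 0.04.

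Of 3 tested goblet and outer epidermis markers 1 was lower (itln1, listed at 0 in a morpholino library). Of 3 somite and muscle markers 1 was higher (myf5), and of 3 endoderm markers 1 was higher (sox17a). The 4 neural plate markers and the notochord marker shh were not called. Among all features 17.2% were higher and 17.4% were lower. The part of these cell types in the values of the machine genes was not tested.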

How the data were processed

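The deposited files hold, for each library, estimated counts and TPM for every transcript, which the authors made with kallisto, per the submitters' processing notes. A further deposited table for each hour holds the authors' sleuth comparison, with p-values and q-values and an effect on the natural log scale. For tool versions, the transcript set and the genome build, the sources used here give nothing. In direction, the authors' natural log effects were wild type minus morpholino when set against the counts of the same hour, and are printed on the log2 scale with the sign reversed. Transcript lengths are the authors' deposited values, in bases.

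Estimated counts were summed per symbol without regard to letter case, with transcripts lacking a symbol kept singly, and rounded to whole numbers; 26.8 to 31.3% of values per library were not whole. edgeR 4.0.16 (R 4.3.3) filtered features by its filterByExpr function over the 10 groups of arm and hour, leaving 14151 of 19037 (74.3%), scaled libraries by TMM and fitted 1 quasi-likelihood model to all 25 libraries with a trended dispersion. The average arm difference, the slope in each arm and the slope difference were contrasts of the 10 group coefficients. P-values were adjusted by the Benjamini-Hochberg method over all features tested, and a standard error is the log2 difference divided by the square root of the F statistic. Depth was 12800000 to 36200000 estimated counts a library, and the lowest count of a machine gene in a library was 18.

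Same-numbered wild-type libraries deviated together over the hours (correlation of deviations from the group means 0.275 to 0.453 in 10 of 10 pairs), so their number was taken as pairing the hours of the wild type. In the morpholino arm, replicates 1 and 3 did so as well (0.288 to 0.655 and 0.367 to 0.755), and replicate 2 in 9 of 10 pairs (0.0848 to 0.421). These deviations share the group mean of the hour, so those of the 3 numbers are tied to each other and are not separate evidence. Across the arms at the same hour the first number gave 0.163 to 0.423, over 0.1 in 5 of 5 pairs, and the second -0.0866 to 0.168, over 0.1 in 1 of 5. Since not every pair was over 0.1, the arms were not treated as paired. The main fit held no replicate term and treated the 25 libraries as independent, with replicate blocks run only as alternatives. The average arm difference thus rests on 2 wild-type and 3 morpholino replicate numbers, and its p-values may overstate the replication.

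Alternatives were DESeq2 1.42.0 as size factors and as a test, library totals, no filter, the most abundant transcript, replicate blocks, fewer hours, younger wild-type references and omitted libraries. The genes named are, in each machine, the 3 with the smallest p in the average arm difference, the 2 with the smallest p in each slope, and the highest and lowest TPM, beside all called genes. Other genes named for their dependence on the third morpholino replicate, and the genes with differing transcripts, were chosen after their values were seen. The gene list, its grouping and the companion, regulator and marker lists were chosen with earlier results of these data known. The values of 1 companion gene are not reported here. Gene sequences were not used here.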

Additional observations from a re-analysis of the deposited data

Results flagged for a closer look

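bbs12, which encodes a chaperonin-like factor of BBSome assembly, differed between the arms in opposite directions at different hours. Every morpholino library was below both wild-type libraries at 13 hpf (-0.32 on the log2 scale), and every one was above both at 15 hpf (1.36) and at 16 hpf (0.89). The difference by hour itself, tested as the slope difference between the arms, was 0.40 ± 0.11 an hour (SE; unadjusted p = 0.00133, adjusted p = 0.997, edgeR), so it did not pass after adjustment over all features. Without the third morpholino replicate the adjusted p stayed at or above 0.05, as it did in all alternatives run, of which the lowest gave 0.110. Against the wild type 2 hours earlier bbs12 measured -0.17 ± 0.19 on average (adjusted p = 0.718, edgeR). Against the wild type 1 hour earlier it measured 0.11 ± 0.17 (adjusted p = 0.692, edgeR). The gene had 35 to 256 estimated counts a library.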

How the results depend on the processing

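Library totals as the scaling moved the median of all features by -0.16 on the log2 scale, to -0.17, and that of the 42 genes to -0.34. There were then 1 higher and 14 lower genes, beside 9.9% and 22.6% of all features. Set against the shift of all features, the median of the 42 genes stayed below theirs. In the average arm difference the higher count was 2 with DESeq2 size factors (17.7% of all features) and with the DESeq2 test (20.3%). It was also 2 with a replicate block per arm (23.9%) and over 14 to 16 hpf alone (6.89%). It was 4 with a replicate block shared by the arms (12.3%) and 8 without the third morpholino replicate (21.9%). With the shared block 9 genes were lower, beside 12.3% higher and 14.9% lower of all features, and the median of the 42 genes was -0.07. The third replicate number occurs only in the morpholino arm, so with this block the average difference rests on replicates 1 and 2. The median was also -0.07 with the third replicate left out. The lower count was 19 with a replicate block per arm, beside 23.9% higher and 27.8% lower of all features. That block takes the differences between the replicates of an arm out of the error. The average arm difference is then not tested against them, and the larger count does not make the calls firmer. The lower count was 2 over 14 to 16 hpf alone (6.25% of all features lower) and 2 with the wild type 2 hours earlier (1.53%). With the wild type 1 hour earlier it was 5, beside 3.94%. Leaving out the third replicate as well was a choice made after seeing the data. Over 14 to 16 hpf it gave 6 higher and 6 lower genes, beside 14.2% and 15.1% of all features. With the wild type 2 hours earlier it gave 6 higher and 5 lower, beside 10.9% and 11.9%. Omitting single libraries gave 1 to 2 higher and 7 to 13 lower genes, beside 11.7 to 21.2% and 11.4 to 20.8% of all features.

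In the wild-type slope 3 genes rose and 8 fell without the third morpholino replicate, beside 26.3% and 24.1% of all features. With the shared replicate block 1 rose and 3 fell (17% and 12.5%), and with the block per arm 1 rose and 2 fell (16.3% and 11.9%). Single omissions gave 0 rising and 0 to 3 falling, beside 0.0139 to 10.2% and 0.0486 to 9.32%. In the morpholino slope 2 fell with library totals (9.7% of all features) and 3 rose with the DESeq2 test (18.3%). Without the third replicate 9 rose and 3 fell (28.1% and 26.6%). With either replicate block 9 rose and 4 fell, beside 24.1% and 19.6% (shared) and 23.4% and 18.9% (per arm). Single omissions gave 1 to 7 rising and 0 to 2 falling, beside 6.08 to 24.2% and 4.37 to 20.1%. The slope difference had 0 calls among the 42 genes in all 33 alternatives. The slope difference of bbs10 changed sign, from -0.11 to 0.06 without the third replicate, and neither value was called; single omissions gave -0.16 to -0.01. A q-value threshold of 0.01 in place of 0.05 left the counts from the authors' deposited tables unchanged at each hour. The causes of these shifts were not tested. No single-hour difference of these genes, with 2 wild-type libraries an hour, passed adjustment by edgeR, and the reason was not tested.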
